A study of Mus musculus with 12 samples.

Results

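Acta2, Actg2, Tagln, Cnn1, Tpm1, Tpm2, Myl9, Cald1, Actn1 and Vcl are 10 genes of the contractile apparatus that fibroblasts assemble when they take on a myofibroblast character. They were chosen by symbol from the 55487 genes listed in each count file, and all 10 were found and passed the filter on low counts in every comparison. RNA was sequenced from primary mouse embryonic fibroblasts prepared at E13.5, all carrying the HTT-floxed allele (HTTfl/fl). The HTT-deleted cells had received a lentivirus encoding Cre recombinase and GFP, and the control cells a lentivirus encoding an H2B-eGFP fusion, each harvested 7 days after transduction. From every culture, ribosomes were purified and their RNA extracted, while 1 part in 15 of the same suspension was kept for total RNA. The 12 libraries thus form 4 groups of 3: ribosome-associated HTT-deleted, ribosome-associated control, total HTT-deleted and total control. Replicates are, per the labels, separate primary cultures or separate passages of one, so that an unpaired p-value measures the spread between such cultures or passages. In fits that pair libraries by replicate number, the p-value measures the spread of the differences within pairs. In all edgeR fits each gene's spread was drawn towards that of the other genes tested. Such a p-value therefore does not rest on the gene's own cultures alone, least of all in fits of 2 pairs. With pairs 1 and 2 alone in ribosome-associated RNA, for example, the SE was 0.121 for Actg2 and 0.116 for Tpm2.

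Contractile fibroblasts pull on their surroundings through stress fibres, bundles of actin filaments that slide against myosin and end in adhesions to the matrix. Actins form the filaments, tropomyosins, caldesmon, calponin and transgelin bind along them, the regulatory myosin light chain switches the motor on when it is phosphorylated, and alpha-actinin and vinculin hold the filaments together and to the membrane. Many genes of this set are known targets of serum response factor (SRF), which binds a DNA element called the CArG box and is activated through RhoA, actin polymerisation and the MRTF coactivators, as well as downstream of TGF-beta.

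Htt was lower in every library labelled HTT-deleted than in the control libraries of its fraction, as counted over the whole gene, since the floxed exons are named in none of the sources used here. Htt had 12.8, 5.05 and 3.98 CPM (counts per 1e6 counts of the library, scaled by the TMM method) in replicates 1, 2 and 3 of ribosome-associated HTT-deleted cells, against 22.6, 20.1 and 32.0 CPM in ribosome-associated control cells. In total RNA Htt had 15.5, 10.6 and 10.7 CPM in HTT-deleted cells, against 58.9, 45.8 and 64.6 CPM in control cells. Gene counts summed to between 16789356 and 30571501 per library. Total HTT-deleted replicate 1 stood apart, with more of its counts on short transcripts: over 9554 genes, transcript length and the gene's deviation from the remaining total libraries gave a Spearman correlation of -0.61, while the 5 others lay between 0.244 and 0.465. Replicate 1 of the ribosome-associated control cells had the same lean, at -0.552, with the 5 other ribosome-associated libraries between 0.0178 and 0.191. Fold changes and calls below that rest on these libraries are therefore given with and without them, while levels and spreads cover all 12 libraries. All 8 fibroblast markers were detected, and their summed level lay between 5077 and 6948 CPM in all 12 libraries. The 12 macrophage markers together had 7900, 2543 and 3349 CPM in ribosome-associated HTT-deleted cells, against 4413, 1063 and 2380 CPM in ribosome-associated control cells, so the HTT-deleted library was higher in every pair of like-numbered cultures. Their total RNA sums were 6936, 1626 and 2524 CPM in HTT-deleted cells and 2856, 694 and 1644 CPM in control cells. Markers of skeletal and cardiac muscle summed to 1.99 to 10.4 CPM over 10 genes, those of endothelium to 15.1 to 31.3 CPM over 6 genes, and those of epithelium and mesothelium to 5.65 to 23.4 CPM over 7 genes. The part of the macrophage markers, and of the cells they come from, in the differences of the contractile genes was not tested.

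Positions are given on GRCm38. Acta2 (ENSMUSG00000035783) lies on chromosome 19 at 34241090 to 34255590 on the minus strand. Actg2 (ENSMUSG00000059430) lies on chromosome 6 at 83512905 to 83536265 on the minus strand, and Cald1 (ENSMUSG00000029761) on chromosome 6 at 34598500 to 34775473 on the plus strand. Chromosome 9 holds Tagln (ENSMUSG00000032085) at 45929619 to 45936058 and Tpm1 (ENSMUSG00000032366) at 67022590 to 67049406, each on the minus strand, and Cnn1 (ENSMUSG00000001349) at 22099216 to 22109630 on the plus strand. Tpm2 (ENSMUSG00000028464) is on chromosome 4 at 43514711 to 43523765, minus strand. Myl9 (ENSMUSG00000067818) is on chromosome 2 at 156775420 to 156781658, plus strand. Actn1 (ENSMUSG00000015143) spans 80167547 to 80260371 of chromosome 12 on the minus strand, and Vcl (ENSMUSG00000021823) 20929398 to 21033676 of chromosome 14 on the plus strand. Exact stretches of 50 bases shared with transcripts of another gene made up 0.326% of Acta2 and 0.29% of Actn1, and none were found for the 8 other genes. Genes on the opposite strand overlap 67.9% of the exonic bases of Tagln (Pcsk7 and Gm48529), 25.5% of Vcl (Ap3m1) and 8.15% of Actn1 (Gm47766 and Gm47767). The libraries were stranded, but they were counted with a strand setting not given in the sources used here, so the values of these 3 genes may include reads of their antisense neighbours.

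SRF is known to act on this set through the CArG box. The promoters of Myl9, Vcl and Acta2 are shown because they held a match to it. The match was exact in Myl9 and Vcl, while those in Acta2 had 1 departure each. A RefSeq promoter window (GRCm38.p6) existed for 8 of the 10 genes, all but Tagln and Actg2, and the 250 bases before each start were searched for CC and GG around a core made only of A and T, 10 letters in all. This pattern reads the same on the other strand, so that 1 search covers both. Capitals mark a match with at most 1 departure in the core, with 20 bases on either side where the window allows.
Myl9, chr2:156775283-156775394, plus strand: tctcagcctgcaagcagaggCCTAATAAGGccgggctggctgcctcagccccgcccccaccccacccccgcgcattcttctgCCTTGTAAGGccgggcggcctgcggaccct
Vcl, chr14:20929151-20929200, plus strand: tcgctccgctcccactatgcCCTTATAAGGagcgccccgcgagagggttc
Acta2, chr19:34255378-34255477, minus strand: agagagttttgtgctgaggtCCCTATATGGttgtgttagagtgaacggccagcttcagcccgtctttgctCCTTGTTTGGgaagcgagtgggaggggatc

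Distances below are to the RefSeq start of each window, which for Myl9 and Acta2 is not the gene boundary given above. The Acta2 stretch lies within the gene positions given above. An exact match was present in Myl9, whose first base lies 161 bases before the start, and in Vcl, 227 bases before it. Myl9 held a further match with 1 departure at 99 bases. Acta2 held 2 matches with 1 departure each, at 84 and 34 bases before the start. Over all 32851 mouse windows, 1.47% held an exact match and 8.59% a match with at most 1 departure. In Tpm1, Tpm2, Cnn1, Cald1 and Actn1 these letters were not in the window searched.

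Levels can be compared between genes only per length, here as CPM per kilobase of annotated exonic sequence. In ribosome-associated RNA of HTT-deleted cells, Acta2 led with 568 ± 177 and Tagln followed with 442 ± 99.2 CPM per kilobase (SD, n = 3 for each level here). Their 3 replicates overlapped, as did those of Tagln and the next, Myl9, at 266 ± 65.7. Below them came Tpm1 at 169.8 ± 27.5, Cald1 at 123 ± 0.889, Tpm2 at 84.8 ± 10.3, Actn1 at 78.3 ± 2.96 and Vcl at 62.0 ± 6.64 CPM per kilobase. Among these neighbours only Tpm2 and Actn1 overlapped in their replicates. Actg2 at 26.5 ± 21.3 and Cnn1 at 17.7 ± 4.30 CPM per kilobase were the lowest and overlapped with each other. The order was the same in ribosome-associated control cells and in total HTT-deleted cells, and in total control cells Actn1 stood above Tpm2. Taken per length of the longest annotated transcript instead of all exonic bases, Tpm1 and Cald1, whose annotations list 21 and 18 transcripts, moved above Myl9 in all 4 groups, and some neighbours from Tpm2 to Vcl changed places.

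**Figure D1:**
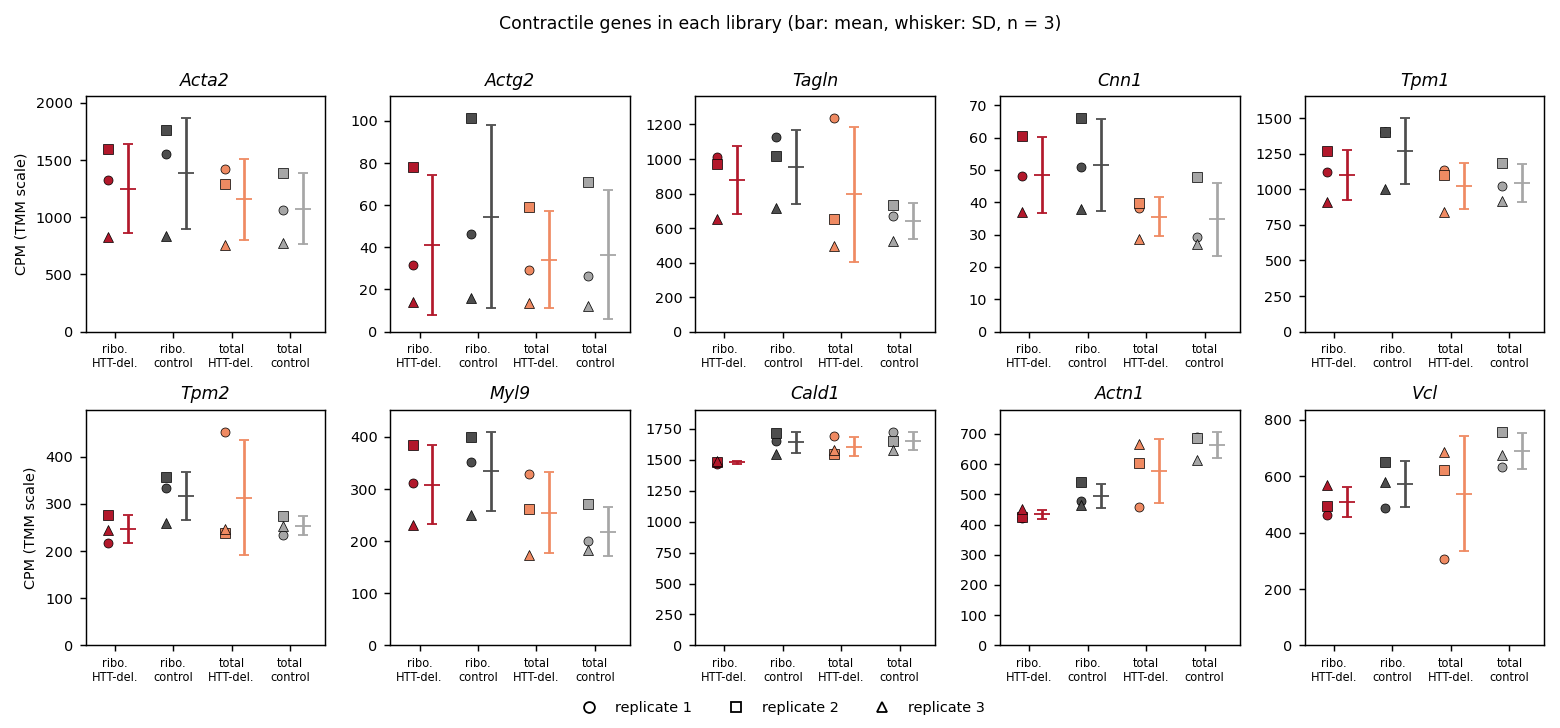
Level of each contractile gene in the 12 libraries, as TMM-scaled CPM on a linear axis that starts at 0, by group (ribo., ribosome-associated). Each symbol is 1 library, its shape gives the replicate number, and the bar and whisker beside it are mean and SD (n = 3). In Acta2, Actg2, Tagln, Cnn1, Tpm1 and Myl9 replicate 3 is the lowest in all 4 groups.

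Cultures of the same group differed widely in several of these genes. Actg2, the smooth muscle gamma-actin of gut wall and bladder, varied most: its highest replicate exceeded its lowest 5.61-fold in ribosome-associated HTT-deleted cells, 6.34-fold in ribosome-associated control cells, 4.29-fold in total HTT-deleted cells and 5.74-fold in total control cells. Among all 9709 genes with a mean of at least 10 CPM, the 95th percentile of that ratio was 2.07, 2.13, 3.02 and 2.05 in the same 4 groups, and the median 1.18, 1.22, 1.53 and 1.16. For the contractile genes the median was 1.47, 1.49, 1.89 and 1.34. Cald1 was the steadiest, with ratios of 1.01 to 1.11. Replicate 3 was the lowest library for 6, 9, 6 and 8 of the 10 genes in these groups, against 32.1, 30.7, 21.7 and 28.0% of all genes. Since like-numbered cultures moved together, a fit with the replicate number as a block is given beside the fit without it wherever it alters a call.

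**Figure D2:**
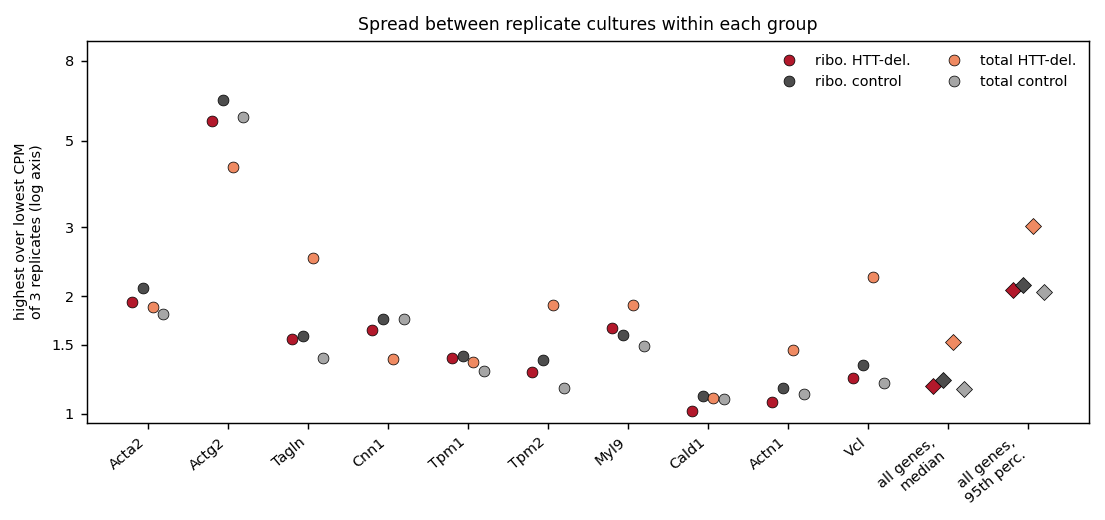
Ratio of the highest to the lowest CPM among the 3 replicates of each group, on a log axis, for each contractile gene (circles) and, as diamonds, for the median and the 95th percentile of the 9709 genes at 10 CPM or more. Actg2 lies between 4.29 and 6.34 in all groups, above the 95th percentile, and Cald1 lies near 1.

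In ribosome-associated RNA, every contractile gene was lower in the HTT-deleted culture than in the control culture of the same number, in each of the 3 pairs. In Acta2, Actg2, Tagln, Cnn1, Tpm1 and Myl9 the difference between the group means of log2 CPM was smaller than the SD of either group, while in Tpm2, Cald1 and Actn1 it was larger than both SDs. The median log2 fold change was -0.156, against -0.00103 over all genes tested, and the 10 values ran from -0.40 for Actg2 to -0.08 for Cnn1. Of the genes tested, 15.6% were lower in all 3 pairs, and 50.3% had a fold change below 0. No contractile gene was called by edgeR's quasi-likelihood test at a Benjamini-Hochberg adjusted p under 0.05 over all genes, and 0.0% of all genes tested, 0 of 14588, were called, Htt included (adjusted p = 1.0). At an unadjusted p under 0.05 that test gave 110 genes, among them 1 contractile gene (Tpm2), and DESeq2 called 1 gene, 0.00686% of those it tested, which was not a contractile one. With the replicate block, Actg2 was the 1 contractile gene among 34 genes called lower, 0.233% of those tested. Htt, the deleted gene, was not called in that blocked fit (-1.89, SE 0.58, edgeR adjusted p = 0.537). A lower level in bulk RNA can mean fewer cells of a type or less RNA per cell, and these cannot be told apart here.

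Of the actins, Acta2 encodes the smooth muscle alpha-actin by which myofibroblasts are usually recognised. It had 1321, 1595 and 827 CPM in ribosome-associated HTT-deleted cells (replicates 1, 2 and 3), against 1554, 1762 and 838 CPM in control cells. The groups overlapped almost completely, with replicate 2 high and replicate 3 low in each, and the log2 fold change of -0.14 (SE 0.34) was smaller than its error. Actg2 had 31.5, 78.2 and 13.9 CPM in HTT-deleted cells, against 46.3, 101.5 and 16.0 CPM in control cells. The groups overlapped, yet the HTT-deleted culture was the lower in each pair, by 0.553, 0.376 and 0.201 on the log2 scale. Without pairing its log2 fold change was -0.40 (SE 0.81, edgeR adjusted p = 1.0), and with the replicate block -0.38 (SE 0.09, edgeR adjusted p = 0.0372). The call ended when a pair was left out: with pairs 2 and 3 alone the blocked value was -0.30 (edgeR adjusted p = 0.242, with 0.0202% of all genes called lower), and with pairs 1 and 3 alone it was -0.38 (edgeR adjusted p = 0.2, with 0.312% called lower). Pairs 1 and 2 alone kept it (-0.45, edgeR adjusted p = 0.00742, with 1.41% called lower). The authors' deposited table was made, per its name, with RUVSeq and edgeR, so its calls rest on another method than those here. There Actg2 had a log2 fold change of -0.37 with a false discovery rate of 0.0193, where 177 of 16235 genes, 1.09%, were called lower.

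Of the proteins that lie along the filament, transgelin (Tagln) is a small actin-binding protein and an early marker of smooth muscle. Tagln had 1012, 972 and 653 CPM in ribosome-associated HTT-deleted cells, against 1128, 1018 and 715 CPM in control cells. Cnn1, calponin, restrains the myosin motor on actin, and had 48.0, 60.5 and 37.0 CPM in HTT-deleted cells, against 50.9, 66.2 and 37.8 CPM in control cells. In each of these genes the groups overlapped, and log2 fold changes of -0.11 (SE 0.23) for Tagln and -0.08 (SE 0.25) for Cnn1 lay within their errors. Cald1, caldesmon, binds actin, tropomyosin and myosin. Its level was 1467, 1484 and 1489 CPM in HTT-deleted cells, against 1654, 1719 and 1546 CPM in control cells. These groups did not overlap, which held in the lower direction for 2 of the contractile genes, Cald1 and Actn1, and for 2.82% of all genes tested. The log2 fold change of Cald1 was -0.14 (SE 0.10, edgeR adjusted p = 1.0).

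The tropomyosins Tpm1 and Tpm2 encode coiled coils that line the actin filament and set which partners can bind it. Tpm1 had 1124, 1267 and 913 CPM in ribosome-associated HTT-deleted cells, against 1407, 1404 and 1003 CPM in control cells, a log2 fold change of -0.20 (SE 0.18). Tpm2 had 218, 278 and 245 CPM in HTT-deleted cells, against 333, 357 and 259.8 CPM in control cells. In each tropomyosin gene the groups overlapped only through control replicate 3, the lowest control culture. The log2 fold change of Tpm2 was -0.35 (SE 0.15), with an unadjusted p of 0.0465 and an edgeR adjusted p of 1.0, and with the replicate block -0.35 (SE 0.09, edgeR adjusted p = 0.0766). It passed with pairs 1 and 2 alone (-0.48, edgeR adjusted p = 0.00174) and not with pairs 1 and 3 (-0.34, edgeR adjusted p = 0.123) or 2 and 3 (-0.22, edgeR adjusted p = 0.671). The difference in pair 3 was the smallest of the 3, at -0.083. In the authors' deposited table Tpm2 stood at -0.35 with a false discovery rate of 0.0717, and all 10 contractile genes were below 0.

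Myl9, the regulatory light chain of smooth muscle and nonmuscle myosin, had 311, 384 and 231 CPM in ribosome-associated HTT-deleted cells, against 352, 400.0 and 251 CPM in control cells. The groups overlapped, and the log2 fold change was -0.11 (SE 0.24). Actn1 encodes alpha-actinin, which crosslinks filaments in stress fibres and adhesions. Its level was 422, 426 and 452 CPM in HTT-deleted cells, against 479, 539.8 and 465 CPM in control cells, without overlap, and its log2 fold change was -0.19 (SE 0.10, edgeR adjusted p = 1.0). Vcl encodes vinculin, which couples integrin adhesions to actin under load. Vcl had 461, 496 and 568 CPM in HTT-deleted cells, against 488, 649.5 and 581 CPM in control cells, with overlap, and a log2 fold change of -0.17 (SE 0.14). In Actn1 and Vcl the difference was widest in pair 2, at -0.342 and -0.39, and under 0.05 in size in pair 3.

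**Figure D3:**
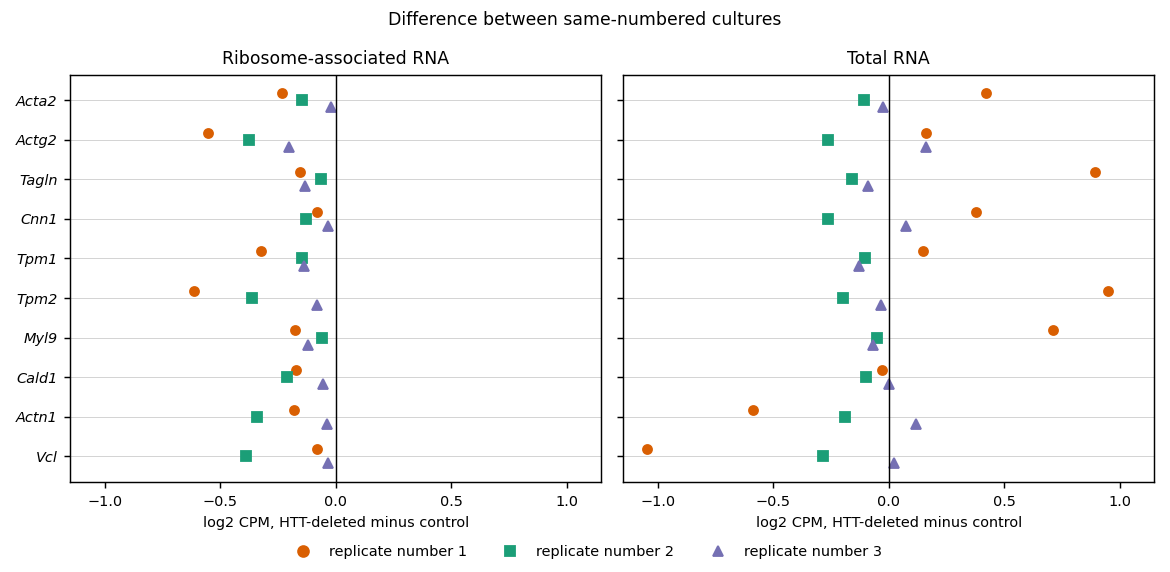
Difference in log2 CPM between the HTT-deleted and the control culture of the same replicate number, for each contractile gene, in ribosome-associated RNA (left) and total RNA (right). All points on the left lie below 0, from -0.614 to -0.019. On the right, pair 1 runs from -1.045 for Vcl to 0.947 for Tpm2, and pairs 2 and 3 lie within 0.29 of 0.

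The ribosome-associated direction was examined against the library that leaned to short transcripts. After the lean with transcript length was taken out of every library, an alternative chosen after seeing the data, all 10 genes stayed below 0 with a median of -0.168. With the replicate block added, Actg2 (-0.35, edgeR adjusted p = 0.0158) and Tpm2 (-0.33, edgeR adjusted p = 0.0367) were among 56 genes called lower, 0.384% of those tested. Without pair 1, which holds that library, the blocked median was -0.135 and again all 10 genes were below 0, though none was called. In the unpaired fit, leaving out 1 library breaks a pair. Without control replicate 1, the library with the lean, 9 of 10 genes were below 0 with a median of -0.124, and Tagln stood at 0.03. The median was lowest without HTT-deleted replicate 2 (-0.28) and nearest to 0 without HTT-deleted replicate 3 (-0.0321). It was -0.279 without control replicate 3 and -0.0664 without control replicate 2, and 5 and 6 of the 10 genes were below 0 without HTT-deleted replicate 3 and control replicate 2.

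In total RNA the contractile genes showed no common direction. Median log2 fold change was 0.0379 with 4 of 10 genes below 0, against 0.0129 over all genes tested, of which 48.0% were below 0. Tagln (0.36, SE 0.38), Tpm2 (0.34, SE 0.29) and Myl9 (0.26, SE 0.29) stood highest and Vcl (-0.34, SE 0.30) lowest, each close in size to its standard error. None was called by edgeR, and 0.0% of all genes, 0 of 14759, were called (44 genes and no contractile gene at an unadjusted p under 0.05, and 3 genes, 0.0203%, and no contractile gene by DESeq2). Htt had a log2 fold change of -2.16 there (SE 0.24) with an unadjusted p of 5.5e-05 and an edgeR adjusted p of 0.812, so that even the deleted gene did not pass over all genes in this fit. It did pass in DESeq2 without pairing (-2.16, DESeq2 adjusted p = 7.01e-12), and in edgeR with the replicate block and pairs 2 and 3 alone (-2.35, edgeR adjusted p = 6e-06). With the replicate block and all pairs Htt did not pass (-2.175, SE 0.20, edgeR adjusted p = 0.902).

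The signs in total RNA turned with the libraries used. In pair 1, the HTT-deleted library with the lean to short transcripts was above control for Tpm2 (0.947), Tagln (0.892), Myl9 (0.712), Acta2 (0.422), Cnn1 (0.379), Actg2 (0.163) and Tpm1 (0.146), and below control for Vcl (-1.045), Actn1 (-0.589) and Cald1 (-0.029). The genes above control have longest transcripts of 1128 (Myl9) to 2890 bases (Tpm1), and those below control 3734 (Actn1) to 5267 bases (Vcl). Within each of these sets the sizes did not follow length strictly. Actg2 at 1333 bases differed less than Tpm2 at 2175 bases, and Cald1 at 4777 bases less than Actn1 at 3734 bases. The part of transcript length in these differences was not tested. In pair 2 all 10 genes were lower in HTT-deleted cells, with a median difference of -0.175, and 52.1% of all genes were lower. In pair 3, 5 of 10 were lower with a median of -0.0132. Without total HTT-deleted replicate 1 the median log2 fold change was -0.0564 with 8 of 10 genes below 0. It was likewise below 0 without total control replicate 3 (-0.0653, 7 of 10 genes), and highest without total control replicate 2 (0.368, 3 of 10 genes). With pairs 2 and 3 alone and the replicate block it was -0.0958 with 10 of 10 below 0. In that blocked fit of pairs 2 and 3 the values ran from -0.12 for Vcl to -0.03 for Actn1, none was called, and 0.629% of all genes tested were. With the length lean taken out of every library the median was -0.00554.

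Acta2 had 1423, 1291 and 756 CPM in total HTT-deleted cells, against 1062, 1390 and 771 CPM in total control cells. Actg2 had 29.4, 59.1 and 13.8 CPM in HTT-deleted cells, against 26.2, 70.8 and 12.3 CPM in control cells. For the actins the groups overlapped, and the culture number ordered the values as it did in ribosome-associated RNA, apart from the first HTT-deleted library of Acta2. Tagln had 1239, 654 and 496 CPM in HTT-deleted cells, against 668, 731 and 527 CPM in control cells. Tpm2 had 454, 239 and 247 CPM in HTT-deleted cells, against 235, 274 and 253 CPM in control cells. Myl9 had 329, 262 and 174 CPM in HTT-deleted cells, against 201, 272 and 182 CPM in control cells. In these 3 genes HTT-deleted replicate 1 was the highest of all 6 total libraries, while HTT-deleted replicates 2 and 3 lay below the control cultures of the same number.

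Cnn1 had 38.2, 39.7 and 28.7 CPM in total HTT-deleted cells, against 29.4, 47.8 and 27.2 CPM in total control cells. Tpm1 had 1136, 1103 and 839 CPM in HTT-deleted cells, against 1027, 1183 and 917 CPM in control cells. Cald1 had 1692, 1543 and 1582 CPM in HTT-deleted cells, against 1726, 1650 and 1582 CPM in control cells. These 3 groups overlapped, and Cald1 was as steady between cultures here as on ribosomes. Actn1 had 459, 603 and 667 CPM in HTT-deleted cells, against 691, 688 and 614 CPM in control cells. Vcl had 306, 622 and 686 CPM in HTT-deleted cells, against 632, 758 and 675 CPM in control cells. For these 2 genes HTT-deleted replicate 1 was the lowest of the total libraries, and the remaining HTT-deleted replicates overlapped with control. In the authors' deposited table for total RNA no contractile gene was called, and Vcl came nearest at -0.40 with a false discovery rate of 0.0503, where 844 of 16974 genes, 4.97%, were called.

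Whether HTT deletion altered the contractile genes more on ribosomes than in total RNA was asked with the interaction of condition and fraction over all 12 libraries. No contractile gene was called by edgeR and 0.0% of 15574 genes were, with 85 genes and no contractile gene at an unadjusted p under 0.05, and 0 genes, 0.0%, by DESeq2. The median interaction was -0.221 on the log2 scale, with 8 of 10 genes below 0, against 0.0139 over all genes. Tpm2 lay farthest from 0, at -0.66 (SE 0.33, edgeR adjusted p = 1.0), and Actn1 (0.01) and Vcl (0.18) were above 0. With pairs 2 and 3 alone and the block, the median shrank to -0.059 and Tpm2 to -0.11. A difference between the fractions in the effect on these genes was therefore not detectable.

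Between the fractions of the same cultures, in control cells, the genes parted into those with relatively more and those with relatively less of their RNA on ribosomes. With the replicate block, 7 of the 10 genes were higher in ribosome-associated than in total RNA: Myl9 (log2 ratio 0.60, SE 0.08), Actg2 (0.57, SE 0.09), Cnn1 (0.57, SE 0.09), Tagln (0.55, SE 0.08), Acta2 (0.33, SE 0.09), Tpm2 (0.30, SE 0.08) and Tpm1 (0.27, SE 0.08). Actn1 (-0.43, SE 0.08) and Vcl (-0.28, SE 0.08) were lower, and Cald1 (-0.02, SE 0.08) was not called. The adjusted p of the 9 called genes ran up to 0.015 in edgeR's quasi-likelihood test. Calls were common in this fit: 24.3% of the 14990 genes tested were called higher and 25.9% lower. Without the block Actn1 alone was called (-0.43, edgeR adjusted p = 0.0208), where 25.0% of all genes were, and its call ended without ribosome-associated control replicate 1, ribosome-associated control replicate 3, total control replicate 1 or total control replicate 2. Its value stayed between -0.495 and -0.391 whichever library was left out, with an edgeR adjusted p between 0.0246 and 0.0902. Without ribosome-associated control replicate 3, Tagln, Tpm2 and Myl9 were called higher in its place. DESeq2 without the block called Tagln, Myl9 and Actn1, where 28.8% of all genes were called.

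The values by culture show the same split. Myl9 was higher on ribosomes by 0.808, 0.559 and 0.46 on the log2 scale in control cultures 1, 2 and 3, Cnn1 by 0.791, 0.47 and 0.472, and Actg2 by 0.818, 0.519 and 0.375. For 7 genes the ribosome-associated library was the higher in all 3 control cultures, as for 37.1% of all genes tested, and for Actn1 and Vcl the lower in all 3, as for 34.7%. The 7 genes called higher have longest transcripts of 1128 bases (Myl9) to 2890 bases (Tpm1), while those of Actn1, Cald1 and Vcl measure 3734, 4777 and 5267 bases. With the length lean taken out and the replicate block kept, the same 7 genes were called higher at 0.17 (Tpm2) to 0.46 (Cnn1), and Myl9 had 0.29 in place of 0.60. In that fit Cald1 was called higher at 0.15 (edgeR adjusted p = 0.0461), Actn1 lower at -0.38, and Vcl at -0.06 was not called, where 25.5% of all genes were called higher and 21.1% lower. These ratios compare shares of each library and give no absolute amount of RNA per ribosome.

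In HTT-deleted cells the same comparison depended on total replicate 1. With all 3 cultures no contractile gene was called, with or without the block, where edgeR called 0.896% of 14627 genes without it and 0.663% with it. At an unadjusted p under 0.05 the unpaired fit gave 1785 genes and no contractile gene, and DESeq2 called 866 genes, 5.92%, and no contractile gene. With pairs 2 and 3 alone and the block, 6 genes were called higher on ribosomes, Cnn1 (0.49), Tagln (0.48), Myl9 (0.48), Actg2 (0.28), Acta2 (0.21) and Tpm1 (0.16), and 2 lower, Actn1 (-0.54) and Vcl (-0.30), where 27.7% and 27.9% of 14981 genes were called. In control cells the same pairs and the same fit gave 0.47 for Cnn1, 0.45 for Tagln, 0.50 for Myl9, 0.45 for Actg2, 0.23 for Acta2, 0.18 for Tpm1, -0.38 for Actn1 and -0.23 for Vcl. Culture 1 of the HTT-deleted cells went the other way for several genes, with a log2 ratio of -1.06 for Tpm2, -0.291 for Tagln and 0.59 for Vcl. Leaving out only total HTT-deleted replicate 1, without the block, gave 1 call, Actn1 lower (edgeR adjusted p = 0.0159), where 19.9% of all genes were called.

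**Figure D4:**
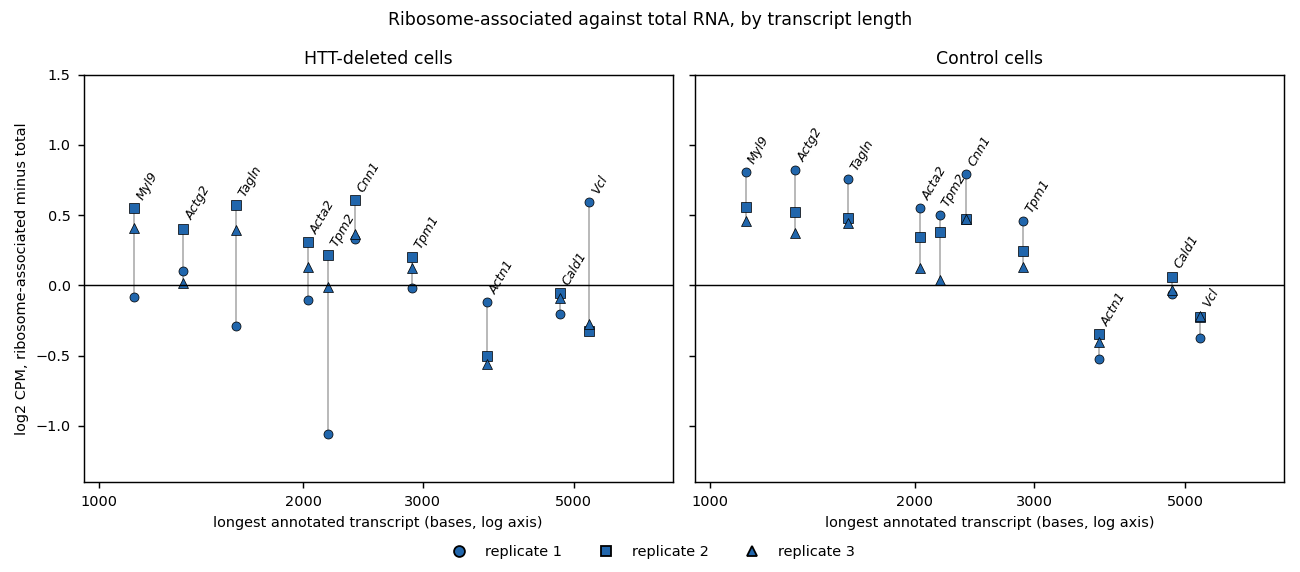
Log2 ratio of ribosome-associated over total CPM in each culture, against the length of the longest annotated transcript (log axis), in HTT-deleted cells (left) and control cells (right). In control cells all 7 genes up to 2890 bases lie above 0 in every culture, and Actn1 and Vcl lie below 0. In HTT-deleted cells, culture 1 departs from the other cultures, most for Tpm2 at -1.06 and Vcl at 0.59.

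Related genes in ribosome-associated RNA were looked at by list. Of the 14 nonmuscle counterparts of the contractile genes (actins, tropomyosins, myosin chains and others that most cells use), 11 were below 0 with a median log2 fold change of -0.0779, and Myl12a, another regulatory light chain, had the smallest p (-0.30 with the block, SE 0.09, edgeR adjusted p = 0.148). Of 10 further smooth muscle genes 9 were tested, all but Kcnmb1, and 8 were below 0 with a median of -0.228. Des, the intermediate filament protein desmin, stood lowest at -0.97 (SE 0.86), close in size to its error, or -0.79 with the block (SE 0.23, edgeR adjusted p = 0.165). Among 12 partners in focal adhesions and stress fibres, 10 were below 0 with a median of -0.0864. None of these 3 lists held a called gene in HTT-deleted against control cells, with or without the block. The lists, and the likeness given last, were also taken without the libraries that lean to short transcripts, a choice made after seeing the data. Without ribosome-associated control replicate 1, 8 nonmuscle counterparts, 8 smooth muscle genes and 9 partners were below 0, with medians of -0.0325, -0.211 and -0.0704. Des then stood at -1.01 (SE 1.02), and Myl12a at -0.14, or -0.16 with the block and pairs 2 and 3 alone.

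Regulators of the set had no common direction. Of 18 genes of the SRF, MRTF, TGF-beta and RhoA routes, 11 were below 0 with a median of -0.0124 in ribosome-associated RNA, and none was called with or without the block. Srf itself had a log2 fold change of -0.11, Mrtfa -0.02 and Mrtfb 0.05, while Smad7, an inhibitor of TGF-beta signalling, had the smallest p (-0.21). The list ran from -0.45 (SE 0.45) for Myocd, a coactivator of SRF found here at a mean of 0.553 CPM in HTT-deleted cells and 0.757 CPM in control cells, to 0.19 (SE 0.18) for the receptor gene Tgfbr1, both named after their values were seen. Without ribosome-associated control replicate 1, 13 of the 18 were below 0, with a median of -0.0679. Srf then stood at -0.19, Mrtfa at -0.09 and Mrtfb at -0.05. Of 10 matrix genes that myofibroblasts secrete, 8 were below 0 with a median of -0.109. Leaving out ribosome-associated control replicate 1 gave 9 below 0 with a median of -0.138. Ccn2, a matricellular growth factor, had the smallest p (-0.34 with the block, edgeR adjusted p = 0.0919). Eln, elastin, rose with the block (0.44, edgeR adjusted p = 0.043), where 1.46% of all genes were called higher. With the block and pairs 2 and 3 alone the value of Eln was 0.46 and its call ended (edgeR adjusted p = 0.374, with 0.0741% of all genes called higher), and Ccn2 had -0.29 (edgeR adjusted p = 0.714). The 8 fibroblast markers were all below 0, with a median of -0.133, close to that of the contractile genes, and their summed level was 5585, 5975 and 5696 CPM in HTT-deleted cells, against 6613, 6948 and 5687 CPM in control cells. Without ribosome-associated control replicate 1, 6 of them were below 0, with a median of -0.139. All 12 macrophage markers were above 0 with a median of 0.76, and 7 of them, Lyz2 among them (0.90), were called higher with the block. With the block and pairs 2 and 3 alone all 12 stayed above 0 with a median of 0.866, and Ptprc, the leukocyte antigen CD45, was the 1 marker called (0.74, edgeR adjusted p = 0.0111). Without ribosome-associated control replicate 1 and without the block their median was 1.37, and none was called. Their part in the lower shares of fibroblast and contractile genes was not tested.

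**Figure D5:**
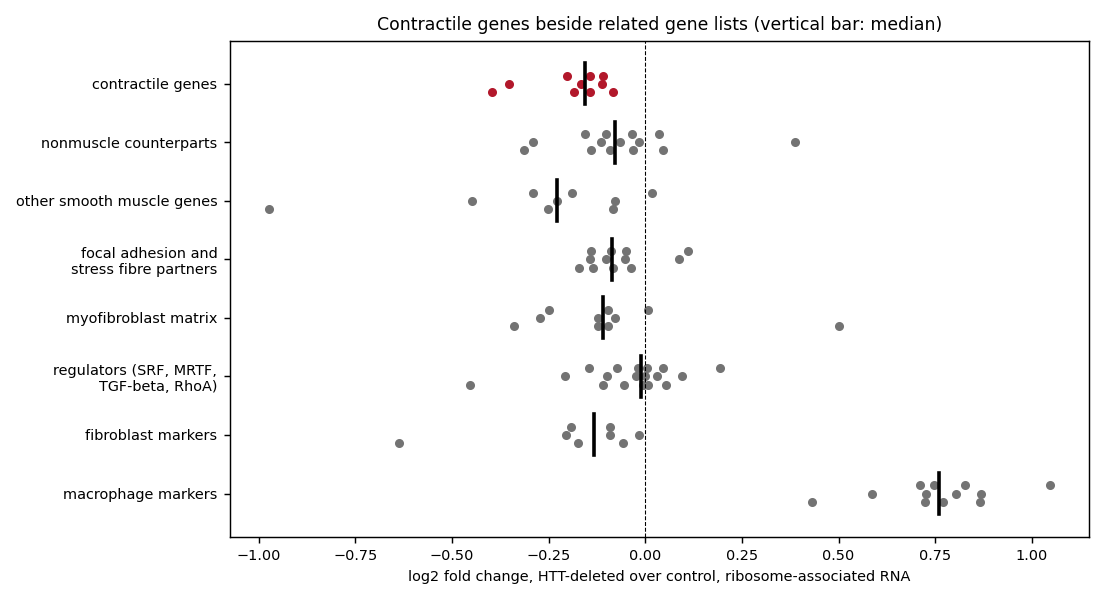
Log2 fold change of HTT-deleted over control in ribosome-associated RNA, without the block, for the contractile genes (red) and each related list (grey). Each dot is 1 gene and the black bar is the list's median. The contractile genes lie between -0.40 and -0.08, and the macrophage markers between 0.43 and 1.05.

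Other genes shared the pattern of the contractile set over the libraries. With log2 CPM centred within each fraction, the 8 genes of 9709 whose values over the 12 libraries lay closest to the mean profile of the contractile genes were Prss23 (Pearson r = 0.974), Inpp5a (0.961), Gas6 (0.958), Rnf122 (0.955), Gsn (0.954), Tbxa2r (0.949), Sfrp1 (0.948) and Gadd45b (0.946). Without the 2 libraries that leaned to short transcripts, the same 8 genes had correlations of 0.932 (Gadd45b) to 0.978 (Sfrp1) over 10 libraries, and ranked between 5 and 88 among the other genes. Their mean levels ran from 10.5 CPM for Rnf122 to 1926 CPM for Gas6. The 12 points share cultures and library preparation, and most of the profile is the difference between culture numbers, so these correlations are given as a description.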

How the data were processed

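The authors deposited 1 file of raw counts of reads per gene for each library; per the submitters' processing notes they used FastQC, STAR 2.7.2b and HTSeq 0.11.1 on GRCm38 (mm10). Per the labels' protocols, libraries were stranded and made from 250 ng of RNA. Annotation release and counting strand: not given in the sources used here. The 5 entries that name no gene were left out (2.64 to 7.73% of reads had no feature). A deposited table of the authors holds log2 fold changes, a score, p-values and false discovery rates.

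Counts of all genes were fitted with edgeR 4.0.16 (TMM, filterByExpr, robust quasi-likelihood test, Benjamini-Hochberg, adjusted p under 0.05), checked on simulated data. Alternatives were DESeq2 1.42.0, RLE size factors, no filter, the replicate block, pairs of cultures, single libraries left out and a length adjustment.

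Replicate numbers pair the samples: fractions share a suspension, and deviations of same-numbered HTT-deleted and control libraries correlated at 0.525, 0.703 and 0.626 (ribosome-associated) and 0.227, 0.576 and 0.444 (total). Members and lists were chosen with earlier results of these data known. All 10 members were named, and from other lists some called genes, some with the smallest p, and Srf, Mrtfa, Mrtfb, Myocd and Tgfbr1. Not every called gene of these lists was named above. Vwf, an endothelial marker, was called higher with the block in ribosome-associated RNA (1.15, edgeR adjusted p = 0.00209), where 1.46% of all genes were. Its call ended with pairs 2 and 3 alone (1.08, edgeR adjusted p = 0.0977).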

Additional observations from a re-analysis of the deposited data

How the results depend on the processing

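The part of sequencing depth, and of the spread between 3 cultures a group, in the small number of calls was not tested. Without pairing, edgeR called Htt itself neither on ribosomes nor in total RNA, and DESeq2 called it in total RNA. With the replicate block and all pairs, edgeR again called Htt neither on ribosomes (edgeR adjusted p = 0.537) nor in total RNA (edgeR adjusted p = 0.902). RLE size factors left each call and direction of the contractile genes as it was. No contractile gene was called under any setting in total RNA or in the interaction, and the causes of the differences below were not tested.

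For HTT-deleted against control cells in ribosome-associated RNA, 0 genes and 0 contractile genes were called in the unpaired fit. DESeq2 called 1 gene. The replicate block gave 247 genes and 1 contractile gene (Actg2), and with length-adjusted offsets 281 genes and 2 contractile genes (Actg2 and Tpm2). Of the blocked pairs, added after seeing the data except pairs 2 and 3, pairs 1 and 2 gave 581 genes and 2 contractile genes, pairs 1 and 3 gave 182 genes, and pairs 2 and 3 gave 14 genes. With 1 library left out the median ran from -0.28 to -0.0321, Acta2 from -0.403 to 0.082, Actg2 from -1.25 to 0.417, Tagln from -0.28 to 0.0646, Cnn1 from -0.269 to 0.134 and Myl9 from -0.291 to 0.063.

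In total RNA 0 genes were called in the unpaired fit, against 3 by DESeq2, 1 with no filter, and 3, 6 and 94 with blocked pairs 1 and 2, 1 and 3, and 2 and 3. Signs near 0 turned. Length-adjusted offsets gave -0.00503 for Cnn1, -0.017 for Tpm1, -0.00605 for Myl9 and 0.0923 for Cald1, and with the replicate block -0.022 for Tpm1, -0.00905 for Myl9 and 0.0745 for Cald1. Tpm1 was -0.00658 with no filter, and Actg2 was 0.047 with the replicate block. Pairs 1 and 3 gave 0.199 for Actg2 and 0.0232 for Cald1. Pairs 2 and 3 gave -0.0601 for Acta2, -0.117 for Tagln, -0.0947 for Cnn1, -0.107 for Tpm1, -0.108 for Tpm2 and -0.053 for Myl9. With 1 library left out the median ran from -0.0653 (without control replicate 3) to 0.368 (without control replicate 2), Acta2 from -0.0579 to 0.385, Actg2 from -0.71 to 0.851, Tagln from -0.148 to 0.617, Cnn1 from -0.0883 to 0.363, Tpm1 from -0.0904 to 0.151, Tpm2 from -0.0531 to 0.51 and Cald1 from -0.0704 to 0.0256.

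In the interaction Actn1 was -0.0321 with length-adjusted offsets and -0.0251 with the replicate block added. Pairs 2 and 3 gave 0.0204 for Tagln, 0.0161 for Cnn1, -0.161 for Actn1 and -0.0853 for Vcl. With 1 library left out Actg2 ran from -1.22 to 0.515, Tagln from -0.699 to 0.0559, Cnn1 from -0.416 to 0.108, Actn1 from -0.111 to 0.121 and Vcl from -0.085 to 0.388, and the median from -0.449 to -0.0465.

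Between the fractions of control cells, 3745 genes and 1 contractile gene were called without the block. DESeq2 called 3 contractile genes and the fit with no filter 2. The replicate block gave 7524 genes and 9 contractile genes, with length-adjusted offsets 6982 and 9, with pairs 1 and 2 6679 and 9, with pairs 1 and 3 5911 and 6, and with pairs 2 and 3 7445 and 9. Cald1 was 0.153 with length-adjusted offsets, 0.151 with the block added and 0.00773 with pairs 2 and 3. With 1 library left out 1507 to 3251 genes and 0 to 3 contractile genes were called, the median ran from 0.173 to 0.525, Actg2 from -0.235 to 1.5 and Cald1 from -0.0574 to 0.0223.

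In HTT-deleted cells 131 genes were called without the block and 866 by DESeq2, 233 with length-adjusted offsets, 395 with the replicate block added to them, 208 with no filter, 354 with pairs 1 and 2, 343 with pairs 1 and 3, and 8333 genes with 8 contractile genes with pairs 2 and 3. Vcl was 0.0288 with length-adjusted offsets, 0.0576 with the block added, 0.12 with pairs 1 and 2 and 0.152 with pairs 1 and 3, and Tpm2 was 0.0987 with pairs 2 and 3. With 1 library left out 0 to 3008 genes and 0 to 1 contractile genes were called, most without total replicate 1. The median then ran from -0.115 to 0.265, Acta2 from -0.132 to 0.331, Actg2 from -0.591 to 0.932, Tagln from -0.122 to 0.607, Tpm1 from -0.0336 to 0.22, Tpm2 from -0.509 to 0.0177 and Vcl from -0.369 to 0.128. Pairing by replicate number changed no other call of a contractile gene.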
